A study of Mus musculus with 6 samples.

Results

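The transcripts of 10 transcription factors of the astrocyte lineage were followed in adult mouse spinal cord after loss of Sox2: the 4 nuclear factor I (NFI) genes Nfia, Nfib, Nfic and Nfix, and their partners Pax6, Rorb, Zbtb20, Lhx2, Emx2 and Rfx4. Members were chosen by gene symbol, matched to the Ensembl identifiers of the tables, and all 10 were found among 35275 genes. The rule used no measured value, but the members were chosen with earlier results of these data known. The Sox2 cKO mice carried mGfap-Cre:Sox2fl/fl, in which Cre under the mouse Gfap promoter (a line active in most astrocytes) deletes Sox2. The Ctrl mice are labelled mGfap-Cre:Sox2+/+, whereas the design text gives them either the Cre transgene or the floxed alleles and the study's methods give floxed littermates, so the Cre transgene may be carried by 1 group or by both. All mice were C57BL/6, and the labels give postnatal day 90 as the age while the protocol gives day 80. There were 3 mice in each group, and poly(A) RNA of whole spinal cord was sequenced. Libraries go by their numbers in the tables, and 3 values of a group are always given in the order 2, 4, 6 for Ctrl and 1, 3, 5 for Sox2 cKO.

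NFI proteins bind DNA as dimers. NFIA and NFIB switch on gliogenesis in the embryonic spinal cord, where NFIA acts together with SOX9, and NFIX and NFIC are the other family members. ZBTB20 promotes astrocyte formation in the developing cortex, RORB and RFX4 are transcription factors with high expression in astrocytes, and PAX6 patterns the ventral neural tube and helps to set the positional identity of ventral astrocytes. LHX2 and EMX2 are best known as patterning factors of the forebrain.

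The deleted gene was read first. Sox2 had 9.60, 6.94 and 13.5 units of FPKM, which are counts scaled to gene length and library total, in Ctrl against 1.63, 1.35 and 1.47 FPKM in Sox2 cKO mice, with a log2 fold change of -2.86 (SE 0.24, adjusted p = 0.000956 in edgeR's quasi-likelihood test). Libraries held 21507911 to 28392184 counts. The tissue label was read from Hoxb8, a gene of trunk identity, which had 83.3 to 100.6 FPKM in the 6 libraries. Of genes typical of the forebrain, Emx1, Otx2 and Tbr1 had at most 7 counts in any library, whereas Neurod6 had 1.12 to 2.09 FPKM, at 53 to 111 counts, and was not called (adjusted p = 0.885). In bulk tissue, fewer cells of a type and less RNA per cell cannot be told apart. A measure that touches every member is gene length, for which the tested genes were split into 5 classes of about equal size. The median log2 deviation of class 5 (the longest genes) from the mean of all libraries, minus that of class 1 (the shortest), was 0.05, 0.41 and 0.36 in Ctrl against -0.45, -0.20 and -0.21 in Sox2 cKO mice. Long genes thus ran higher in Ctrl libraries 4 and 6, and Ctrl library 2 lay between these and the Sox2 cKO libraries. Each member is therefore given also after removal of each library's own trend with length (length correction), and without Ctrl library 2. Length trend and genotype follow each other across these 6 mice, so their parts in a difference cannot be told apart. RNA quality is labelled only as a common lower limit, an integrity number of 6.8, and the study's methods state a higher limit, with no value for a single library, so the part of RNA quality in the length trend was not tested.

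The members spanned a wide range of levels per length. In Ctrl spinal cord the order by mean FPKM was Nfic at 37.97 ± 2.96 (SD, n = 3), Nfix at 34.7 ± 3.87, Nfia at 12.01 ± 3.52, Zbtb20 at 8.46 ± 2.70, Nfib at 7.77 ± 1.43, Rfx4 at 5.83 ± 0.43, Rorb at 4.07 ± 0.79, Pax6 at 1.73 ± 0.14, Lhx2 at 0.132 ± 0.095 and Emx2 at 0.0148 ± 0.015. The ranges of the Ctrl libraries overlapped between the neighbours Nfic and Nfix, Nfia and Zbtb20, and Zbtb20 and Nfib, and were apart for the other neighbours. In Sox2 cKO spinal cord Nfic and Nfix overlapped again, and Nfia lay above Zbtb20 without overlap. Nfib, with a mean of 6.89 ± 0.25 FPKM, stood above Zbtb20 at 5.16 ± 0.52 FPKM there, so the means of this pair changed places. Rfx4, at 5.98 ± 0.64 FPKM, also stood above Zbtb20 by its mean there, with overlapping ranges. In Ctrl library 2 Nfib and Rfx4 already stood above Zbtb20, at 6.20 and 6.18 against 5.42 FPKM. Nfib has 9116 bases, Rfx4 3534 and Zbtb20 26901, and the part of the length trend in this order was not tested.

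**Figure D1:**
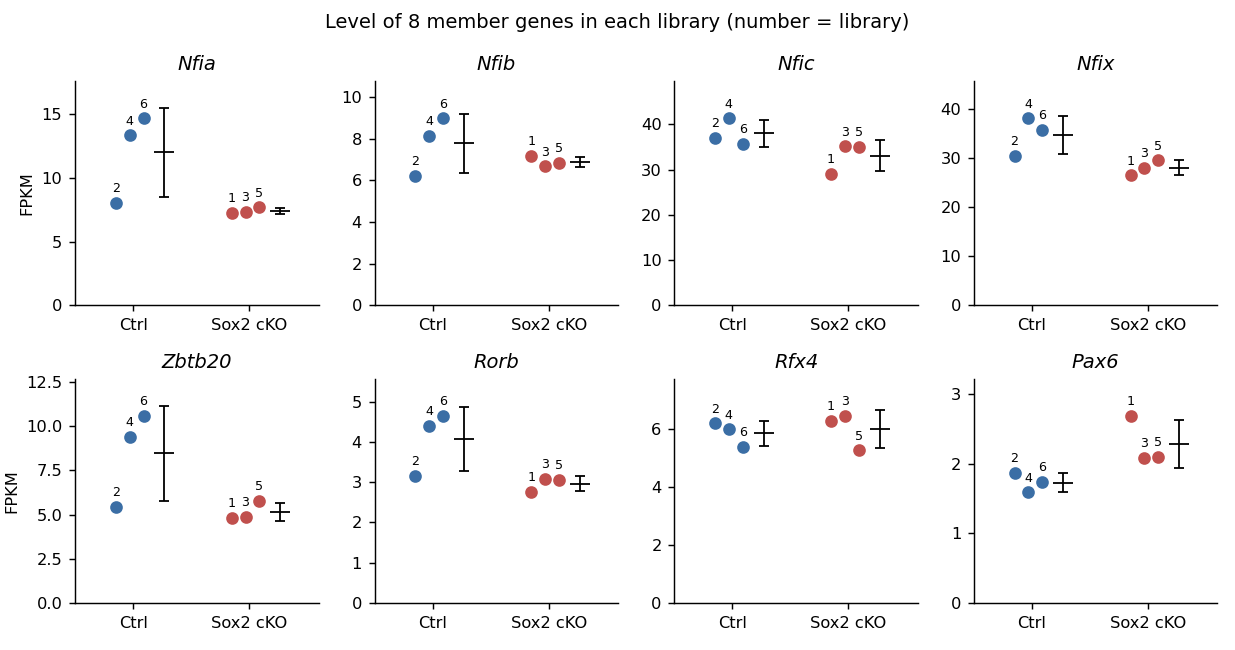
FPKM of 8 members in each library (blue, Ctrl; red, Sox2 cKO; the number beside a point is the library; bars are mean ± SD, n = 3). Ctrl library 2 lay close to the Sox2 cKO libraries for Nfia, Zbtb20 and Rorb, while every Sox2 cKO library lay above every Ctrl library for Pax6.

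Nfia (ENSMUSG00000028565, chr4:97772734-98118874, + strand, GRCm38, the build of mm10) was lower in Sox2 cKO spinal cord. It had 8.01, 13.3 and 14.7 FPKM in Ctrl against 7.23, 7.31 and 7.68 FPKM in Sox2 cKO mice. The groups did not overlap, but Ctrl library 2 stood only just above the highest Sox2 cKO library. In edgeR the log2 fold change was -0.80 (SE 0.19, 95% confidence interval -1.23 to -0.38, adjusted p = 0.0187), or 0.573 times the Ctrl level. On the log2 scale of counts scaled to library size (CPM), Ctrl library 2 was 0.86 below the mean of the other Ctrl libraries and 0.17 above the Sox2 cKO mean. Without it the log2 fold change was -1.04 (adjusted p = 0.000152). With the length correction it was -0.42 (adjusted p = 0.0719, 95% confidence interval -0.74 to -0.11), and with both changes it was -0.60 (adjusted p = 0.00104). Nfia kept its negative sign in all 27 alternative fits and its call in 11 of them. A protein-coding gene on the opposite strand, E130114P18Rik, overlaps the exons of Nfia and had 603 counts over the 6 libraries, against 1481 to 3177 for Nfia in each library.

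Nfib (ENSMUSG00000008575, chr4:82290173-82705750, - strand) did not pass the test. It had 6.20, 8.14 and 8.98 FPKM in Ctrl against 7.16, 6.67 and 6.84 FPKM in Sox2 cKO mice, so the groups overlapped through Ctrl library 2, the lowest of all 6. This gave a log2 fold change of -0.28 (SE 0.13, adjusted p = 0.143). Without Ctrl library 2 it was -0.43 (adjusted p = 0.0021), which passed. The sign turned with the length correction, to 0.08 (adjusted p = 0.604).

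The study took SOX2-bound regions from its authors' earlier chromatin immunoprecipitation data, made in adult cerebral cortex and not in spinal cord. Its motif search then listed short sequence matches inside these regions, called sites here. They are shown for the members nearest to such a region. Binding was mapped to the region, and a site is a match of letters within it. The letters are the study's own, the site is in capitals between its flanks, and each is read 5′ to 3′ on the strand given. Nfib had 3 sites, all in introns. The first lies 4310 bases downstream of the nearest annotated transcript start, at chr4:82495006-82495016 on the + strand. The others, at chr4:82532955-82532965 on the + strand and chr4:82533536-82533546 on the - strand, lie at -27176 and -27757 bases from the nearest start, which is upstream of it. The site of Nfix lies in an intron at chr8:84765918-84765928 on the - strand, 7478 bases downstream of a start.
Nfib site 1: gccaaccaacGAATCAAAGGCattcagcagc
Nfib site 2: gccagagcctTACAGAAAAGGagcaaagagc
Nfib site 3: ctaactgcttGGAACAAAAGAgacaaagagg
Nfix site: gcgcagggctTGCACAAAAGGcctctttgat
The list covers the bound regions of highest enrichment, so other sites may exist near any member. In primary astrocytes the study also tested SOX2 binding by PCR after immunoprecipitation, at sites of other astrocyte genes such as Gfap and Slc1a2.

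Nfix (ENSMUSG00000001911, chr8:84699876-84800344, - strand) was lower in Sox2 cKO spinal cord. It had 30.4, 38.0 and 35.7 FPKM in Ctrl against 26.4, 28.0 and 29.4 FPKM in Sox2 cKO mice. The groups did not overlap, with Ctrl library 2 again nearest to the Sox2 cKO libraries. Its log2 fold change was -0.41 (SE 0.11, 95% confidence interval -0.65 to -0.17, adjusted p = 0.0246). It was -0.52 without Ctrl library 2 (adjusted p = 0.00145) and -0.23 with the length correction (adjusted p = 0.0776), and -0.31 with both (adjusted p = 0.00841). Lyl1, on the opposite strand, overlaps Nfix exons and had 254 counts in all, against 3109 to 5204 for Nfix in each library.

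Nfic (ENSMUSG00000055053, chr10:81396186-81455635, - strand), the most abundant member, did not pass the edgeR test. Its FPKM was 36.9, 41.3 and 35.7 in Ctrl against 29.1, 35.1 and 34.9 in Sox2 cKO mice. The groups did not overlap, but 4 of the 6 values lay close together and Sox2 cKO library 1 was the lowest. Its log2 fold change was -0.30 (SE 0.11, adjusted p = 0.0639) in edgeR and -0.31 in DESeq2 (adjusted p = 0.0266). It was -0.07 with the length correction (adjusted p = 0.541). Without Ctrl library 2, edgeR called it lower, at -0.34 (adjusted p = 0.0338).

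The family was also read as a total and as shares of it. The summed FPKM of the 4 NFI genes was 81.6, 100.8 and 94.96 in Ctrl against 69.9, 77.1 and 78.9 in Sox2 cKO mice. The exact two-sided permutation test of the total gave p = 0.1, the smallest value that 3 mice against 3 allow. After length correction the totals overlapped, at 80.7, 88.9 and 84.7 in Ctrl against 80.1, 80.95 and 83.04 in Sox2 cKO mice (exact permutation p = 0.3). Nfia made up 9.82%, 13.2% and 15.5% of the sum in Ctrl mice, and it made up 10.3%, 9.49% and 9.74% in Sox2 cKO mice. Ctrl library 2 had the share of a Sox2 cKO library, and the difference of means was -2.98 percentage points (exact permutation p = 0.2). It was -4.49 without Ctrl library 2, -1.67 without Ctrl library 6 and -1.96 with the length correction. The share of Nfix ranged from 36.3% to 37.8% over the 6 libraries, with a difference of -0.38 percentage points (exact permutation p = 0.7). After length correction it was 37.2%, 38.9% and 38.7% in Ctrl against 36.5%, 35.9% and 36.9% in Sox2 cKO mice, without overlap, and the difference was -1.88 points at the smallest p of the exact permutation test, 0.1. The shares of the other NFI genes overlapped on both scales. Nfic made up 41.3 ± 3.88% in Ctrl and 43.8 ± 1.99% in Sox2 cKO (SD, n = 3; exact permutation p = 0.4), and Nfib 8.38 ± 0.96% and 9.19 ± 0.91% (exact permutation p = 0.4).

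**Figure D2:**
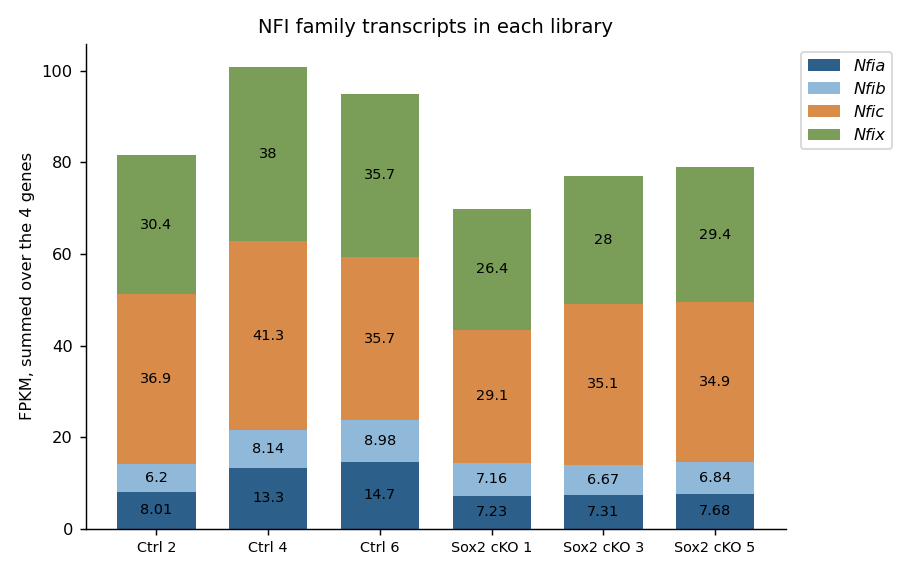
FPKM of Nfia, Nfib, Nfic and Nfix stacked for each library, with the value of each gene printed in its segment. The total lay between 69.9 and 78.9 in the Sox2 cKO libraries and between 81.6 and 100.8 in the Ctrl libraries, and Nfic and Nfix made up most of it in every library.

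Zbtb20 (ENSMUSG00000022708, chr16:42875881-43642602, + strand), a zinc finger and BTB domain repressor with the longest gene model of the members at 26901 bases, was called lower although the groups overlapped. Its FPKM was 5.42, 9.39 and 10.6 in Ctrl against 4.82, 4.89 and 5.76 in Sox2 cKO mice. Ctrl library 2 fell below Sox2 cKO library 5. This gave a log2 fold change of -0.82 (SE 0.22, 95% confidence interval -1.30 to -0.34, adjusted p = 0.0246). Without Ctrl library 2 it was -1.07 (adjusted p = 0.000285). The length correction left -0.19 (adjusted p = 0.309), the largest loss among the called members, and -0.31 without Ctrl library 2 (adjusted p = 0.0366).

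Rorb (ENSMUSG00000036192, chr19:18930605-19111196, - strand), an orphan nuclear receptor, was also lower. Its FPKM was 3.16, 4.39 and 4.65 in Ctrl against 2.76, 3.08 and 3.07 in Sox2 cKO mice. There was no overlap, with Ctrl library 2 next to the Sox2 cKO libraries. Its log2 fold change was -0.55 (SE 0.15, 95% confidence interval -0.88 to -0.23, adjusted p = 0.0255). It was -0.72 without Ctrl library 2 (adjusted p = 0.000621), -0.20 with the length correction (adjusted p = 0.195) and -0.29 with both (adjusted p = 0.0212). Its relative Rora, the only called gene of 12 tested paralogs of members, had a log2 fold change of -0.53 (SE 0.13, adjusted p = 0.0181) and of -0.14 with the length correction (adjusted p = 0.164). The median log2 fold change of the 12 paralogs was 0.02, equal to that of all tested genes at 0.02. Of all tested genes 12.4% were called lower.

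Pax6 (ENSMUSG00000027168, chr2:105668900-105697364, + strand) was higher in each Sox2 cKO library but did not pass the test. Its FPKM was 1.87, 1.59 and 1.74 in Ctrl against 2.69, 2.08 and 2.10 in Sox2 cKO mice. The groups did not overlap, and Sox2 cKO library 1 was the highest. In edgeR the log2 fold change was 0.30 (SE 0.14, 95% confidence interval -0.01 to 0.61, adjusted p = 0.136), which did not pass. The length correction did not reduce it, at 0.39 (SE 0.14, 95% confidence interval 0.08 to 0.71, adjusted p = 0.0881). The sign was positive in all 27 alternative fits and called in 0 of them, with adjusted p-values from 0.0631 to 0.547. Pax6os1, the antisense RNA that overlaps its exons, had 39 counts in all, against 169 to 262 for Pax6 in each library.

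Rfx4 (ENSMUSG00000020037, chr10:84756062-84906538, + strand), a winged-helix factor, showed no detectable difference. Its FPKM was 6.18, 5.97 and 5.35 in Ctrl against 6.28, 6.43 and 5.24 in Sox2 cKO mice, and the groups overlapped throughout. This gave a log2 fold change of -0.06 (SE 0.10, 95% confidence interval -0.29 to 0.16, adjusted p = 0.67). Rfx4 is the member with a listed SOX2 motif match at its promoter, inside a region bound in cortex. The match lies at chr10:84756023-84756033 on the + strand, 39 bases before the annotated start. The RefSeq promoter window (GRCm38.p6, chr10:84755798-84756097, + strand) is printed to show where the site, in capitals, stands.
Rfx4 promoter: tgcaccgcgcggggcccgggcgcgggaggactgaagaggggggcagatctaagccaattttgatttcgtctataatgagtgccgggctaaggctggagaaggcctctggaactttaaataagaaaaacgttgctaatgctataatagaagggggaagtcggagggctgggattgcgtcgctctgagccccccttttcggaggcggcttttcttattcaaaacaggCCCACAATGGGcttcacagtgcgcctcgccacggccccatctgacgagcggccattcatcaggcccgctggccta
Of the 9 tested members, Rfx4 had the log2 fold change nearest to 0, and its sign turned with limma on FPKM.

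Lhx2 (ENSMUSG00000000247, chr2:38339281-38369733, + strand) was near the limit of detection, with 15, 8 and 3 counts in Ctrl against 14, 21 and 15 counts in Sox2 cKO mice. The groups overlapped through Ctrl library 2. Its log2 fold change was 0.71 (SE 0.48, 95% confidence interval -0.35 to 1.77, adjusted p = 0.294). Without Ctrl library 2 it was 1.36 (adjusted p = 0.0621). Emx2 (ENSMUSG00000043969, chr19:59458372-59465357, + strand) had 2, 1 and 0 counts in Ctrl and 2, 2 and 0 counts in Sox2 cKO libraries, and did not pass the filter on low counts. A difference in Emx2 was not detectable at this depth.

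Of the 9 members tested, 4 were called lower (Nfia, Nfix, Rorb and Zbtb20), 0 were called higher and 5 did not pass. Over all 16137 tested genes 12.4% were called lower and 12.2% higher. The median log2 fold change of the members was -0.30, against 0.02 for all tested genes, and -0.0741 with the length correction, against 0.00145. On the CPM scale every Sox2 cKO library lay below every Ctrl library for Nfia, Nfic, Nfix and Rorb, as for 22.1% of all tested genes. It lay above for Pax6, as for 22.6%. After length correction the groups overlapped for all 4 of the lower genes and only Pax6 stayed apart, where 19.3% of all genes lay below and 18.1% above. Gene length changes the background against which these counts are read. Nfia, Nfib, Nfic, Nfix, Rorb and Zbtb20 all belong to class 5, the longest tested genes, from 4869 bases, in which 36.0% were called lower and 1.73% higher. All 4 called members are among these 6. Pax6, at 4427 bases, belongs to class 4, in which 14.2% were called lower and 5.02% higher. Lhx2 and Rfx4 belong to class 3, with 7.03% called lower and 8.24% higher.

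**Figure D3:**
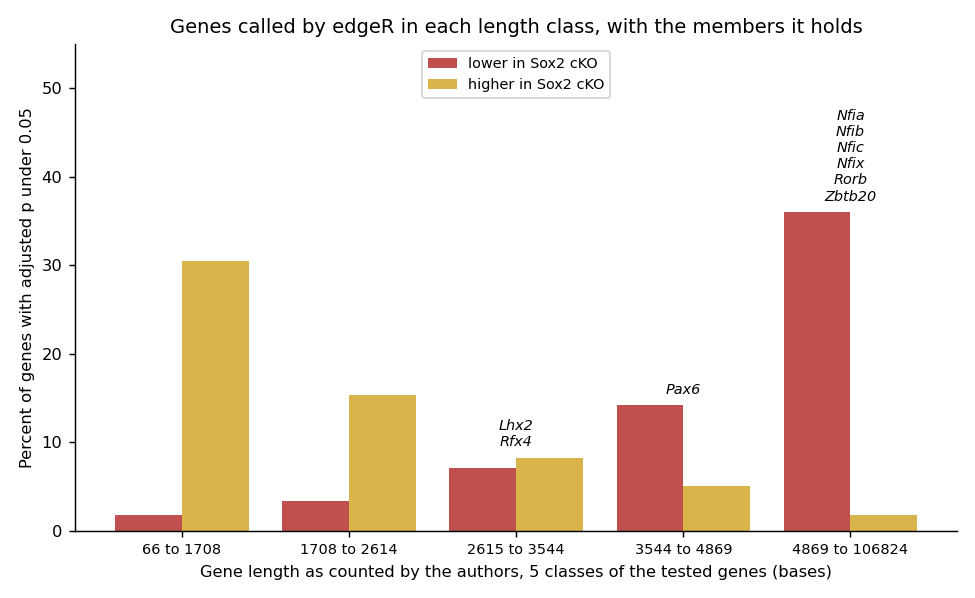
Percent of tested genes called lower (red) or higher (yellow) in Sox2 cKO by edgeR in each of 5 gene length classes, with the members that a class holds written above the bars. The share called lower was 1.73% in the shortest class and 36.0% in the longest, which holds all 4 NFI genes, Rorb and Zbtb20.

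With the length correction 0 of the 9 members were called, where 6.99% of all genes were called lower and 6.08% higher. At an unadjusted p under 0.05 there were 3, namely Nfia and Nfix lower and Pax6 higher. DESeq2 on the uncorrected counts called 5 members lower, the 4 above and Nfic, where 15.2% of its tested genes were lower. Without Ctrl library 2 edgeR called 6 members lower, all 4 NFI genes with Rorb and Zbtb20 (18.6% of all genes lower). With the length correction as well, a fit added after the data were seen, it called Nfia, Nfix, Rorb and Zbtb20 (14.1% of all genes lower). No label marks Ctrl library 2 as a different kind of sample. Leaving out Ctrl library 4, Ctrl library 6, Sox2 cKO library 1 or Sox2 cKO library 3 gave 0 called members in edgeR (4 or 5 at an unadjusted p under 0.05), with largest adjusted p-values of 0.0845 for Nfia, 0.108 for Nfix, 0.107 for Rorb and 0.105 for Zbtb20. These fits called 0.0794%, 2.9%, 0.0303% and 4.04% of all genes lower, in that order. Over them the log2 fold change of Nfia was -0.79 to -0.61, that of Nfix -0.41 to -0.34, that of Rorb -0.58 to -0.43 and that of Zbtb20 -0.78 to -0.61. DESeq2 called Nfix and Rorb whichever 1 of the 6 libraries was dropped. Of these 6 fits it called Nfic in 4, Nfia in 3, Zbtb20 in 2 and Nfib in 1. The genes it called lower ranged from 1105 of 13361 tested (without Ctrl library 4) to 2998 of 15784 (without Ctrl library 2).

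**Figure D4:**
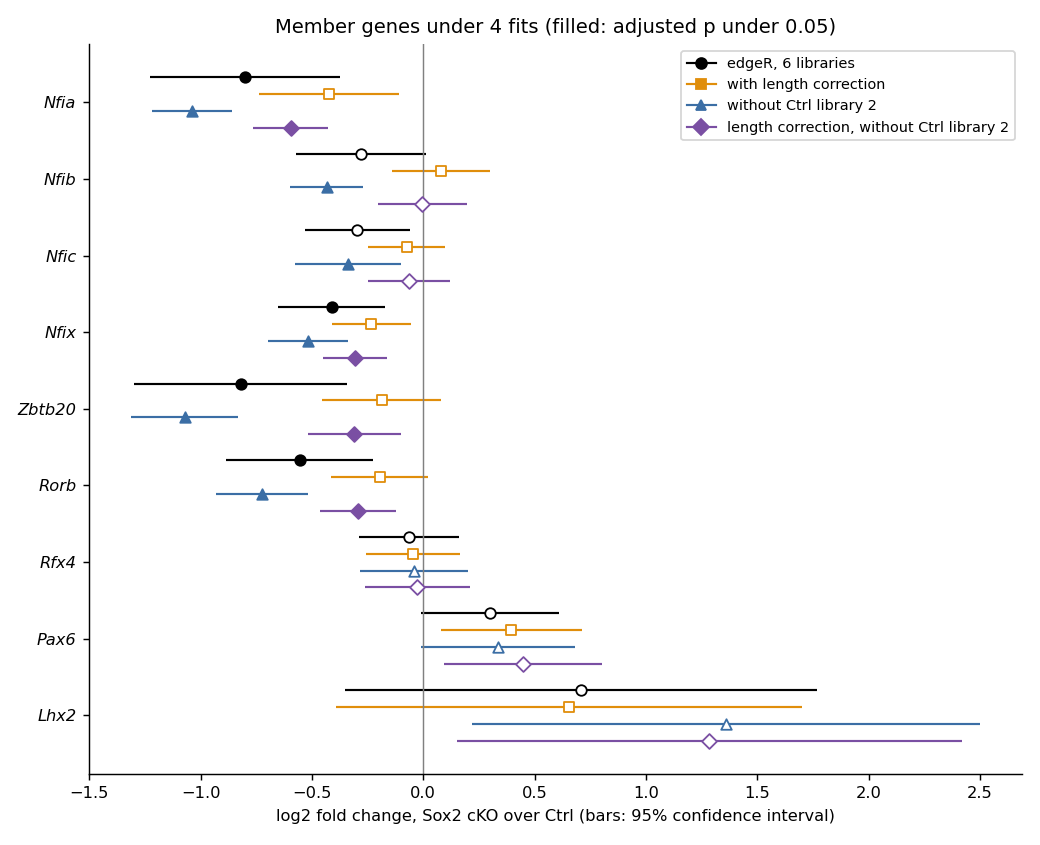
Log2 fold change of the 9 tested members (Sox2 cKO over Ctrl) with 95% confidence intervals under 4 fits, filled where the adjusted p is under 0.05. Length correction drew Nfia from -0.80 to -0.42 and Zbtb20 from -0.82 to -0.19, and leaving out Ctrl library 2 narrowed the intervals of Nfia, Nfix, Rorb and Zbtb20.

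Nfia, Rorb, Zbtb20 and Nfib ranked the Ctrl libraries alike on the CPM scale, highest in library 6, next in library 4 and lowest in library 2. Ctrl library 2 was below the mean of the other Ctrl libraries by 0.94 for Zbtb20, 0.58 for Rorb, 0.52 for Nfib, 0.34 for Nfix and 0.12 for Nfic on the log2 CPM scale. For Rfx4 it was 0.07 above, and for Sox2 it was 0.07 below, so this library carried the Sox2 transcript of a Ctrl mouse. Its Zbtb20 lay within the range of the Sox2 cKO libraries, and its Nfia and Rorb stood just above that range. Over all tested genes, Ctrl library 2 lay nearer to the Sox2 cKO mean than to the mean of the other Ctrl libraries for 55.6%. The Sox2 cKO mean rests on more libraries than the other mean, and no such share was computed for another library. The usual value of this share is thus not known.

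**Figure D5:**
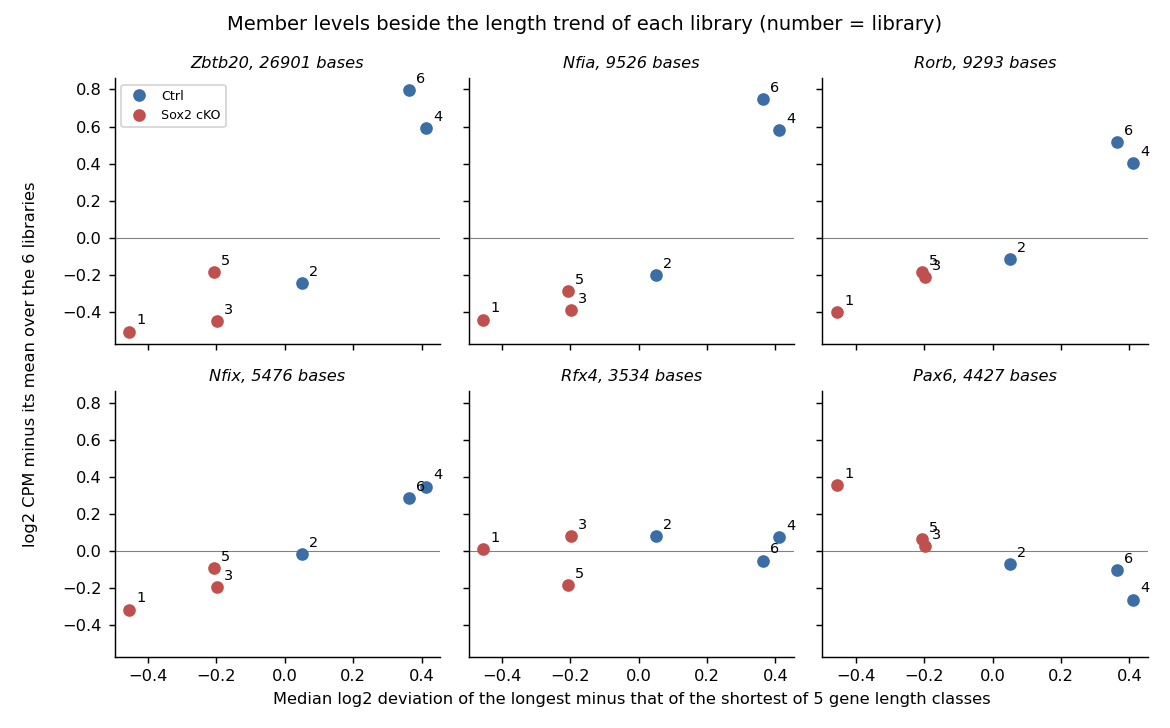
Log2 CPM of 6 members relative to the mean of the 6 libraries, against the length trend of the same library (median log2 deviation of the longest minus the shortest of 5 gene classes). Zbtb20, Nfia, Rorb and Nfix were high in Ctrl libraries 4 and 6, whose length trend was 0.41 and 0.36, whereas Rfx4 showed no such order and Pax6 ran the opposite way.

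Astrocyte markers moved beside the members, so the members were also set against them. Of 17 astrocyte markers 7 were called lower and 1 higher (5 and 0 with the length correction). Of all tested genes 12.4% were called lower and 12.2% higher (6.99% and 6.08% with the length correction). The median log2 fold change of the markers was -0.21, against 0.02 for all tested genes. The called markers include Gfap, the intermediate filament gene, at a log2 fold change of -1.11 (adjusted p = 0.0102), Slc4a4, a bicarbonate transporter, at -0.71, Slc1a2, the glutamate transporter, at -0.62, and S100b, a calcium-binding protein, at 0.71 in the other direction. With the length correction Gfap and Slc4a4 (-0.41, adjusted p = 0.0185) kept their call. Slc1a2 then stood at -0.21 (adjusted p = 0.0928) and S100b at 0.47 (adjusted p = 0.0615), and neither was called. Summed over the list, CPM was 14093 to 16498 in Ctrl and 11361 to 12180 in Sox2 cKO libraries, and 0 of the markers were without counts. Relative to the median log2 FPKM of these markers in the same library, Nfia had a difference between groups of -0.50 (exact two-sided permutation p = 0.3), Zbtb20 of -0.51 (p = 0.3), Rorb of -0.29 (p = 0.4) and Nfix of -0.16 (p = 0.3) in the same exact permutation test. The groups overlapped for each of these members. Without Ctrl library 2 these differences were -0.79, -0.83, -0.48 and -0.27, and without Ctrl library 6 they were -0.33, -0.32, -0.18 and -0.14. Without Ctrl library 4 that of Nfix was -0.07. Relative to the markers Pax6 was higher in every Sox2 cKO than in any Ctrl library, by 0.54 on the log2 scale, at the smallest p of the exact permutation test, 0.1. The signs for Nfix, Zbtb20 and Rorb turned positive with the length correction, at 0.07, 0.12 and 0.11, while Pax6 stayed positive and Nfia stood at -0.0959. On the CPM scale Nfia stood at -0.17 and Zbtb20 at -0.18, and the signs for Rorb (0.0429) and Nfix (0.17) turned positive. From FPKM to CPM every member moved by the same amount, so that move lies in the marker median.

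Markers of other cell types were read for the same libraries, in which 12.4% of all tested genes were called lower and 12.2% higher. Oligodendrocyte precursor markers, 5 measured, were all called lower, with summed CPM of 187 to 220 in Ctrl and 124 to 160 in Sox2 cKO libraries, and 2 were called with the length correction. Gpr17, a receptor of committed precursors, had a log2 fold change of -0.87 (adjusted p = 0.0176). Among 4 ependymal markers Foxj1, the regulator of motile cilia, was called lower at -0.35 (adjusted p = 0.0246), and the sums were 44.5 to 52.9 in Ctrl and 38.5 to 39.9 CPM in Sox2 cKO libraries. The sums of neuron, motor neuron, oligodendrocyte, microglia, endothelial, meningeal fibroblast, Schwann cell, and neutrophil and red cell markers overlapped between groups. Among these, Stmn2 of 9 neuron markers, Ly6c1 of 5 endothelial markers and S100a8 and S100a9 of 4 blood markers were called higher, and 0 of 4 motor neuron, 7 oligodendrocyte, 6 microglia, 4 meningeal and 3 Schwann cell markers were called. The part of these cell types in the members' values was not tested.

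Regulators that act beside the members gave a mixed picture. Of 17 tested regulators of astroglia 3 were called lower and 1 higher, with a median log2 fold change of 0.05. Of all tested genes 12.4% were called lower and 12.2% higher. Glis3, a zinc finger factor, had a log2 fold change of -1.08 (SE 0.22, adjusted p = 0.0133) and kept its call with the length correction, at -0.79 (adjusted p = 0.0346). Gli3, an effector of Hedgehog signalling, had -0.93 (adjusted p = 0.0208) and -0.60 with the correction (adjusted p = 0.0742). Id4, an inhibitor of bHLH factors, had -0.31 (adjusted p = 0.0182) and -0.54 with the correction (adjusted p = 0.0161). Hopx was higher at 0.47 (adjusted p = 0.0304) and at 0.17 with the correction (adjusted p = 0.285). Id2 was the most abundant of the list by mean FPKM over the 6 libraries, though Id4 was above it in Ctrl (43.9 against 42.8 FPKM), and did not pass, at 0.33 (adjusted p = 0.0773). Sox9, the partner of NFIA, had -0.24 (SE 0.13, adjusted p = 0.192).

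Of 7 tested genes linked to NFIA and SOX9 in the literature, 2 were called lower in both the uncorrected and the corrected fit. Over all tested genes these fits called 12.4% and 6.99% lower, in that order. Gfap fell, as given above, and stood at -1.20 with the length correction (adjusted p = 0.0103). Apcdd1, a Wnt inhibitor and early NFIA and SOX9 target, had a log2 fold change of -0.32 (SE 0.10, adjusted p = 0.0422) and of -0.39 with the correction (adjusted p = 0.0298). Mmd2 and Zcchc24, the other early targets on the list, had -0.04 (adjusted p = 0.73) and 0.00283 (adjusted p = 0.988). The median over the 7 was 0.00283.

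The 3 genes of astrocyte position, which belong to the code set by PAX6 and NKX6-1 in the embryonic cord, were all called lower. Their median log2 fold change was -0.57. Of all tested genes 12.4% were called lower. Reln (11699 bases) and Slit1 (5673 bases) belong to class 5 of gene length, in which 36.0% were called lower. Nkx6-1, at 2100 bases, belongs to class 2, in which 3.32% were called lower. Nkx6-1 had a log2 fold change of -0.57 (SE 0.17, adjusted p = 0.0384). Reln, which marks the more dorsal and the intermediate subtypes of ventral astrocytes, had -0.69 (SE 0.13, adjusted p = 0.0128). Slit1, which marks the more ventral and the intermediate of these subtypes, had -0.55 (SE 0.14, adjusted p = 0.0211). With the length correction Nkx6-1 stood at -0.72 (adjusted p = 0.0347) and Reln at -0.27 (adjusted p = 0.0323), and Slit1 was no longer called, at -0.35 (adjusted p = 0.0594). Neurons also express these 3 genes. Of 6 Hox genes of trunk identity 0 were called, with adjusted p-values from 0.0823 to 0.773, and Hoxa7 was called lower with the length correction, at -0.31 (adjusted p = 0.037).

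Over the 6 libraries, the genes whose log2 CPM was most like that of a member were Mllt6 and Sympk for Nfia (Pearson's r = 0.999 for each), Iqsec1 and Zbtb37 for Nfix, Ntng2 and Ubqln4 for Zbtb20, Apba2 and Phc3 for Rorb, Pcm1 and Tfdp2 for Nfic, Fbxw4 and Epop for Nfib, Fuk and Gm8094 for Pax6, Csgalnact2 and BC065397 for Lhx2, and Gm13421 and Adam1a for Rfx4. The points share genotype, depth and length trend, and 6 libraries are few. For Nfix 1383 of the other tested genes had an r of at least 0.95, for Rorb 1099, for Nfia 781 and for Zbtb20 698, and for Rfx4 there were 9. Among the members themselves, r was 0.99 between Nfia and Zbtb20 and between Nfia and Rorb, and -0.995 between Pax6 and Nfic.

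Promoter windows of RefSeq (GRCm38.p6, 300 bases around each start) were held for 9 members, 16 windows in all, and Nfib had none. The SOX core ACAAAG, sought on both strands, was in 3 windows, 1 each of Nfix, Pax6 and Rfx4, and in 18.7% of all 32851 windows. The full NFI palindrome and its shorter form TTGGCA, which overlap in their first letters, were in 0 of the 16 windows, and in 0.0365% and 14.1% of all windows. The RFX motif GTTGCC was in 2 windows, 1 each of Nfia and Pax6, and in 12.5% of all windows. These are matches of letters only.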

How the data were processed

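The authors aligned reads of poly(A) libraries (NEBNext Ultra Directional kit) to mm10 with STAR 2.5 and counted them per gene with HTSeq 0.6.1, according to the submitters' processing notes. Whether counting used the strand is not given in the sources used here. They deposited raw counts per gene and FPKM values, which the authors derived by dividing counts by gene length and library total (lengths recovered from both tables were whole, within 0.01, for all 24442 genes with a count). Columns were assigned to groups by their numbers. The group means then matched for 1999 of 1999 genes with the named means of the authors' table of calls, whose other columns (fold changes, p-values) were not used. Nothing ties columns to replicate numbers.

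The main test was that of edgeR 4.0.16, run in R 4.3.3 (filterByExpr, TMM, quasi-likelihood test, no covariate, Benjamini-Hochberg over 16137 genes, threshold 0.05). CPM are TMM-scaled. Alternatives used DESeq2 1.42.0 and limma 3.58.1 (log2 of FPKM plus 1 or 0.1, mean FPKM of at least 0.5). The length correction was a lowess curve with span 0.3 in each library, entered as an offset. Fits were tested on simulated counts. Genes named were all members, Sox2, up to 4 called genes (largest change first) and the most abundant gene of each list, and the 2 genes most like each member. Sox9, Mmd2, Zcchc24, the genes of the tissue check and the overlapping genes were named after their values were seen. The members and lists were chosen with earlier results of these data known. The p-values measure the spread between 3 mice in each group. Names and positions are from GENCODE M21 (34490 of 35275 identifiers matched), and 1 marker gene was not found. A further gene of the tissue check is not reported here.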

Additional observations from a re-analysis of the deposited data

How the results depend on the processing

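Over leave-one-out fits with edgeR, DESeq2 and the length correction, genes called ranged from 8 (edgeR without Sox2 cKO library 1) to 6119 (edgeR without Ctrl library 2), members called from 0 to 6, and genes of the fixed lists called, 10 in the main analysis, from 0 to 14. Without Ctrl library 4 edgeR called 26 genes. With the length correction 2109 genes and 0 members were called. With limma on log2(FPKM + 1) and on log2(FPKM + 0.1), 0 of 8 tested members (5 at an unadjusted p under 0.05) and 5 genes of the lists were called. These fits called 915 and 896 of all 14756 tested genes lower, in that order. Of all their calls 74.5% were higher in Sox2 cKO, against 49.4% in edgeR. Without a filter on low values limma called 7 genes, 0 members and 0 genes of the lists, and Sox2 had a log2 fold change of -2.11 (adjusted p = 0.0567).

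The sign of Nfib turned with the length correction, to 0.0809, and in 5 of the 6 length-corrected fits that left out a library. Over all fits that left out a library its log2 fold change ranged from -0.45 to 0.18. The sign of Rfx4 turned with limma (0.0286 with a pseudocount of 1, also without the filter, and 0.0325 with one of 0.1) and without Sox2 cKO library 5 in edgeR. Over the fits that left out a library it ranged from -0.14 to 0.0257. The share of Nfix in the NFI sum differed by -1.88 percentage points with the length correction. Relative to astrocyte markers, differences with TMM CPM in place of FPKM were 0.32 for Nfib, 0.27 for Nfic, 0.17 for Nfix, 0.87 for Pax6 and 0.51 for Rfx4, and with the length correction 0.39 for Nfib, 0.22 for Nfic, 0.0686 for Nfix, 0.11 for Rorb and 0.12 for Zbtb20. From FPKM to TMM CPM every member set against the markers moved by the same amount. These scales differ only by a factor per gene and per library. That shift therefore lies in the median of the markers and not in a member. The cause of the other shifts was not tested. No paired analysis was possible because the columns of the tables carry no replicate numbers. Lhx2 and Emx2 are limited by depth.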
